A study of Rattus norvegicus with 8 samples.

Results

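Epiblast-like cells (EpiLC) were compared with the 3 other states of a rat series that leads from embryonic stem cells to germ cell-like cells, by RNA sequencing of 8 libraries, 2 per state. The members are the EpiLC-specific genes, chosen by measured values: a gene is EpiLC-specific high where both EpiLC values lie above all 6 other values, and EpiLC-specific low where both lie below them. Of 22228 named genes, 3024 (13.6%) were EpiLC-specific high and 2778 (12.5%) were EpiLC-specific low. The gap is the distance between the EpiLC value and the value of another library nearest to it, on the log2(TPM + 1) scale where TPM is transcript abundance normalized for gene length and library.

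EpiLC were made by aggregating 4000 ESC per well for 60 h in medium that held bFGF at 12 ng/ml, activin A at 20 ng/ml and 1% serum replacement (KSR). The embryonic stem cells (ESC) grew on mouse embryonic fibroblast feeders in N2B27 medium with the MEK inhibitor PD0325901 at 1 µM, the GSK3 inhibitor CHIR99021 at 3 µM and rat LIF at 1000 U/ml. PGCLC_d3 are primordial germ cell-like cells made from EpiLC aggregates and sorted on day 3 with BMP4 at 500 ng/ml, LIF at 1000 U/ml, SCF at 100 ng/ml and EGF at 50 ng/ml. PGCLC_d3ag3 were sorted after 5000 such cells had spent 3 days in 5% KSR together with 50000 gonadal somatic cells, taken from E15.5 females and depleted of c-KIT-positive cells. All groups are of the rat strain Crlj:WI and are listed as wild type, although the sort that gave each PGCLC group used a tdTomato reporter joined to Nanos3. The labels give no such sort for EpiLC and ESC. Whether the 2 libraries of a group stem from separate cultures is not labelled, so the p-values reflect only the spread between libraries, which may be technical.

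Activin A and bFGF move naive stem cells, which resemble the inner cell mass, towards the formative state of the epiblast after implantation. In mice this state is transient, and it is the state from which BMP4 induces primordial germ cells. It is known for OTX2 and POU3F1, for high levels of the de novo DNA methyltransferases and for the loss of naive factors such as NANOG and PRDM14, which germ cell precursors take up again.

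A total of 13571 genes had at least 1 TPM in at least 2 libraries and were tested with limma on the deposited log2(TPM + 1) values. Among these tested genes 2303 (17.0%) were EpiLC-specific high and 2638 (19.4%) were EpiLC-specific low, while 721 high and 140 low genes did not pass the filter. Of the tested high genes, 254 passed it through the EpiLC libraries alone, with under 1 TPM in all 6 others. The median gap was 0.36 for high genes and 0.28 for low genes. A gap of at least 1 was held by 435 high and 278 low genes, and a gap of at least 2 by 116 and 67. Just inside the boundary stood Actr8 and Ltbp4 on the high side and Atp5mc3 and Mansc1 on the low side, each with a gap of 0.001. Just outside it, at a gap of 0, stood Chordc1 and Gpt2 on the high side and Abcg5 and Abhd12b on the low side.

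Replicates correlated across genes at r = 0.9968 in EpiLC, and between 0.9946 and 0.9975 in the other 3 groups. Relative depth, read from the steps between low TPM values and set to 1 in ESC replicate 1, was 1.16 and 1.5 in EpiLC and between 1 and 2.37 in the other libraries. In bulk samples fewer cells of a type and less RNA per cell cannot be told apart. The markers of epiblast-like cells fixed for checking the label were not uniformly present. Fgf5, a standard marker of the mouse formative epiblast, was at 0.075 and 0 TPM in EpiLC and reached at most 0.04 TPM in the other libraries. Zic2, another such factor, had 4.27 and 4.62 TPM in EpiLC, against 9.16 and 9.44 in ESC, 0.154 and 0.179 in PGCLC_d3, and 0 and 0 in PGCLC_d3ag3. The EpiLC libraries were below ESC and above both PGCLC groups. The other 7 epiblast markers, Otx2, Pou3f1, Dnmt3a, Dnmt3b, Sall2, Lef1 and Utf1, were all EpiLC-specific high.

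Promoter windows of 250 bases before to 50 bases after the gene start, from RefSeq on build GRCr8, are shown for the genes with the widest gap in each direction, Osgin1 and Pnp, and for the germ cell gene Sohlh2, which is EpiLC-specific high, beside the germ cell genes Ddx4 and Dazl, which are not. Osgin1 lies on the plus strand at chr19:64393651-64393950, Pnp on the plus strand at chr15:26643897-26644196, Sohlh2 on the plus strand at chr2:141512160-141512459, Ddx4 on the minus strand at chr2:46015902-46016201 and Dazl on the plus strand at chr9:18193113-18193412. Capitals mark matches to CACGTG, the E-box bound by MAX and MGA, and to TTCCCGCC, an E2F6-type motif, searched on both strands with TAATCC (OTX2-type) and ATGCAAAT (octamer).
Osgin1: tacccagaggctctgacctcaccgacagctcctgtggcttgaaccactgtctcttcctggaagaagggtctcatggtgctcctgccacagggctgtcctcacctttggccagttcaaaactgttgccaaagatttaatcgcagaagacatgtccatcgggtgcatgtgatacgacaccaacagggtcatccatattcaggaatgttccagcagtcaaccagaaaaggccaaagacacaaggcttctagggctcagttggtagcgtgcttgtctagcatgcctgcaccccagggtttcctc
Pnp: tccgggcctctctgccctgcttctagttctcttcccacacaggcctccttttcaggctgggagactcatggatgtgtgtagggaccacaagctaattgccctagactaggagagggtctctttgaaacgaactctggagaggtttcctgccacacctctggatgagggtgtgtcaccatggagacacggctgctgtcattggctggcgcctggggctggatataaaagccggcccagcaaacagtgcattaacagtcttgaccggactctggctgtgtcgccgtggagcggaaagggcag
Sohlh2: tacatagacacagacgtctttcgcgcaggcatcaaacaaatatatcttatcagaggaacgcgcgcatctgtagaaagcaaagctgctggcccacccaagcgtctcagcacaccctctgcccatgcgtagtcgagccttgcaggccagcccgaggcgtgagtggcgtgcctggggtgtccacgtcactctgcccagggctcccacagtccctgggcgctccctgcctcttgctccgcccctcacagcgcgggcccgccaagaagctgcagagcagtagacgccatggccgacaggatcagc
Ddx4: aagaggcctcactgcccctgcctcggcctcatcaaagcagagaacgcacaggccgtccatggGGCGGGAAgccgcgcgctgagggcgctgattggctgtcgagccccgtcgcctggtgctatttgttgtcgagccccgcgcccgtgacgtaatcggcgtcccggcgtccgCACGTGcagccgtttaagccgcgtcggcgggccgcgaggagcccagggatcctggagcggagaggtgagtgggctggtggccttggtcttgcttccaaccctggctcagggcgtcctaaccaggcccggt
Dazl: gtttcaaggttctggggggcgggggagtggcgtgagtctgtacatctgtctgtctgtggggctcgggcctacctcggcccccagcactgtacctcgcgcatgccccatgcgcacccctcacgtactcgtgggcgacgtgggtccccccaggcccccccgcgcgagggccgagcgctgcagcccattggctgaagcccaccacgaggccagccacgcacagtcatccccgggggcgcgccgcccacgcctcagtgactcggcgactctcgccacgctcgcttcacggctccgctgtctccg
The Ddx4 window held 1 E-box, 80 bases before the start, and 1 E2F6-type match on the opposite strand, 188 bases before the start, and the 2 do not overlap. The other 4 windows, that of Dazl among them, held none of the 4 motifs. Of 33469 rat windows 6.42% held the E-box, 1.91% the E2F6-type motif, 7.17% the OTX2-type motif and 1.78% the octamer.

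The 20 widest gaps on the high side ran from 3.58 to 5.36, and 15 of these 20 genes were under 5 TPM in every other library. They are described without a test, since their gaps chose them. The widest belonged to Osgin1, an oxidative stress-induced growth inhibitor, with 81.5 and 75.1 TPM in EpiLC, against 0.271 and 0.509 in ESC, 0.852 and 0.78 in PGCLC_d3, and 0 and 0.212 in PGCLC_d3ag3. Sox3, a SOXB1 transcription factor of the epiblast and neural plate, had 74.5 and 79.6 TPM in EpiLC, against 0.788 and 0.741 in ESC, 0.854 and 1.14 in PGCLC_d3, and 0.597 and 0.189 in PGCLC_d3ag3. Myrf, a membrane-bound transcription factor, had 64.8 and 65.7 TPM in EpiLC, against 0.364 and 0.31 in ESC, 1.1 and 1.05 in PGCLC_d3, and 0.485 and 0.705 in PGCLC_d3ag3. In all 3 genes the 6 other libraries stood near or under 1 TPM.

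Vil1, which bundles actin in microvilli, had 101 and 98.4 TPM in EpiLC, against 0.145 and 0.291 in ESC, 3.14 and 2.42 in PGCLC_d3, and 0.501 and 0.458 in PGCLC_d3ag3. Vrtn, a DNA-binding protein linked to vertebra number in pigs, had 68.6 and 66.4 TPM in EpiLC, against 2 and 1.73 in ESC, 2.55 and 2.51 in PGCLC_d3, and 1.12 and 0.854 in PGCLC_d3ag3. Saal1 had 119.8 and 115 TPM in EpiLC, against 0.691 and 0.505 in ESC, 3.67 and 4.55 in PGCLC_d3, and 3.5 and 5.02 in PGCLC_d3ag3. The signal outside EpiLC was small in all of them, highest in PGCLC_d3 for Vil1 and Vrtn and in PGCLC_d3ag3 for Saal1. Efnb2, the ligand ephrin-B2 of EPH receptors, had 98.2 and 89.4 TPM in EpiLC, against 3.35 and 4.07 in ESC, 1.98 and 1.22 in PGCLC_d3, and 0.878 and 1.54 in PGCLC_d3ag3. Prps2, a phosphoribosyl pyrophosphate synthetase at the entry to purine synthesis, had 188 and 199 TPM in EpiLC, against 1.51 and 1.54 in ESC, 12.5 and 12.4 in PGCLC_d3, and 6.59 and 5.85 in PGCLC_d3ag3. Tubb4a, a beta-tubulin best known from the nervous system, had 273 and 316 TPM in EpiLC, against 0.173 and 0.168 in ESC, 21.3 and 21.7 in PGCLC_d3, and 3 and 3.05 in PGCLC_d3ag3. For Efnb2 the nearest libraries were those of ESC, and for Prps2 and Tubb4a those of PGCLC_d3.

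Dnmt3b, a de novo DNA methyltransferase, had the highest level among these 20 genes, with 2666 and 2887 TPM in EpiLC, against 155 and 143 in ESC, 33.8 and 27.6 in PGCLC_d3, and 25.1 and 30 in PGCLC_d3ag3. The ESC libraries were nearest, at a gap of 4.09. Others among the 20 were Cd8a, Lypd1, Tmem154, Pknox2, Car7, Hsd11b2, Rapgef5, Trim54 and Tmem54. For 16 of the 20 genes the nearest library belonged to PGCLC_d3, for 3 to ESC and for 1 to PGCLC_d3ag3. The matching count over all tested genes was not taken.

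On the low side the 20 widest gaps ran from 2.98 to 4.61. The widest belonged to Pnp, purine nucleoside phosphorylase of the purine salvage pathway, with 3.06 and 3.7 TPM in EpiLC, against 163 and 152 in ESC, 114 and 114 in PGCLC_d3, and 176 and 199 in PGCLC_d3ag3. Rbm24, an RNA-binding protein, had 1.63 and 1.72 TPM in EpiLC, against 67.8 and 65.9 in ESC, 91.7 and 87 in PGCLC_d3, and 60.6 and 65.2 in PGCLC_d3ag3. Efna2, the ligand ephrin-A2, had 1.28 and 1.4 TPM in EpiLC, against 46.7 and 49.2 in ESC, 42.8 and 40.5 in PGCLC_d3, and 51.9 and 56.6 in PGCLC_d3ag3. In each of these genes the 3 other states lay close to each other and EpiLC stood alone below them.

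A different pattern held for Nanog, a core factor of naive pluripotency and of germ cell precursors, with 5.55 and 4.24 TPM in EpiLC, against 933 and 912 in ESC, 148 and 169 in PGCLC_d3, and 142 and 157 in PGCLC_d3ag3. Prdm14, which represses differentiation genes in naive and germ cells, had 0 and 0.123 TPM in EpiLC, against 16.3 and 17.5 in ESC, 88.7 and 83.4 in PGCLC_d3, and 39.7 and 35.4 in PGCLC_d3ag3. Dppa3, a maternal factor that protects DNA from demethylation in the zygote, had 38.7 and 26.8 TPM in EpiLC, against 1312 and 1306 in ESC, 375 and 389 in PGCLC_d3, and 467 and 509.9 in PGCLC_d3ag3. Nanog and Dppa3 were highest in ESC and Prdm14 in PGCLC_d3. Zfp296, Gbx2 and Ifitm3, which mark naive or germ cells, were also among the 20.

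Other low genes of the 20 belong to the BMP, WNT and NOTCH pathways. Id3, an inhibitor of bHLH factors and a direct BMP target, had 15.7 and 12.7 TPM in EpiLC, against 341 and 321 in ESC, 840.0 and 905 in PGCLC_d3, and 761 and 756 in PGCLC_d3ag3. Msx2, a homeobox gene and BMP target, had 0.469 and 0.526 TPM in EpiLC, against 25.5 and 27.3 in ESC, 133 and 152 in PGCLC_d3, and 33.8 and 38.2 in PGCLC_d3ag3. Bmp4 itself, the ligand that was added to the PGCLC culture, had 6.11 and 6.95 TPM in EpiLC, against 91.6 and 99.6 in ESC, 72.6 and 68.5 in PGCLC_d3, and 63.2 and 65.5 in PGCLC_d3ag3. For Id3 and Msx2 the PGCLC_d3 libraries were highest, whereas Bmp4 was highest in ESC. Another BMP ligand gene, Bmp2, is not among the 20 and was EpiLC-specific high. It had 7.4 and 9.57 TPM in EpiLC, against 0.27 and 0.132 in ESC, 1.13 and 0.909 in PGCLC_d3, and 1.31 and 0.758 in PGCLC_d3ag3. The WNT receptor Fzd10 had 0.097 and 0.15 TPM in EpiLC, against 66.4 and 73.5 in ESC, 50 and 44.3 in PGCLC_d3, and 21.5 and 25.3 in PGCLC_d3ag3. Hey2, a transcriptional repressor and NOTCH target, had 0.638 and 0.264 TPM in EpiLC, against 50.5 and 54.4 in ESC, 41.7 and 43.6 in PGCLC_d3, and 31.8 and 31.7 in PGCLC_d3ag3. Both were under 1 TPM in EpiLC and highest in ESC. Msx1, Foxi3, Dnase2, Pfkfb3, Foxq1 and Cldn5 made up the 20.

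**Figure D1:**
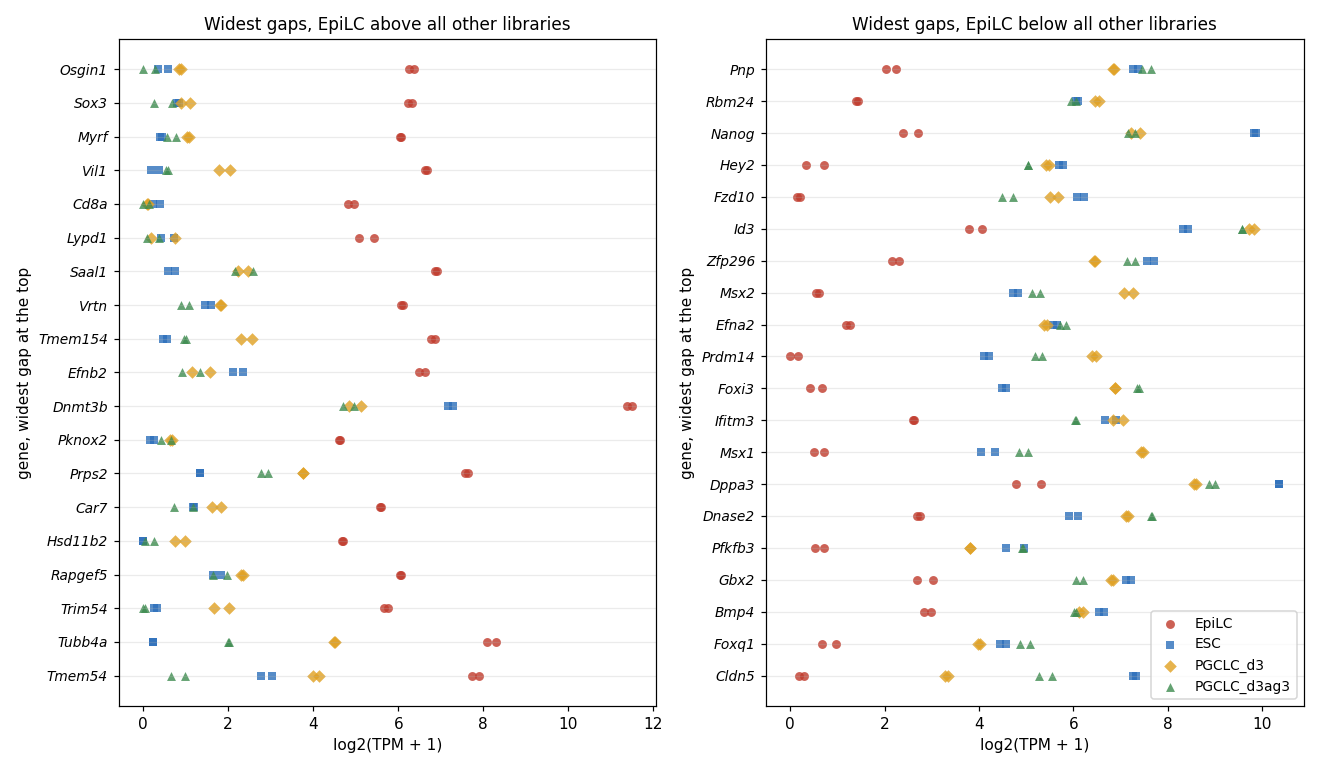
Levels in log2(TPM + 1), on the x axis, of 19 of the 20 genes with the widest gap above (left) and all 20 below (right) all other libraries, 1 point per library coloured by group. The 2 EpiLC points stand apart from the 6 others in every row because the rule chose the genes that way, with gaps of at least 3.58 on the left and 2.98 on the right.

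Gene lists were set beside the limma calls. A gene was called EpiLC-high where EpiLC was above each of the 3 other groups at a Benjamini-Hochberg adjusted p under 0.05 in all 3 comparisons, and EpiLC-low where it was below each. Over all tested genes 1733 (12.8%) were EpiLC-high and 1920 (14.1%) were EpiLC-low. All 1733 EpiLC-high genes and 1919 of the 1920 EpiLC-low genes were also EpiLC-specific. The calls rest on the same values as the rule and are no separate evidence for it. The median difference between EpiLC and the mean of the 3 other groups was -0.11 on the log2 scale over all tested genes. The median of EpiLC minus PGCLC_d3 alone was -0.21, and it was 0.02 after rescaling by median ratios and -0.01 after quantile normalization, so small differences against PGCLC_d3 are relative to that shift. The share of higher genes among those called in EpiLC minus PGCLC_d3 was 36.8%, against 50.8% and 49.2% under these scalings.

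Of 22 tested genes of the formative and primed epiblast, 14 were EpiLC-high and 4 were EpiLC-low, with a median difference of 2.89. Otx2, a homeodomain factor of the anterior epiblast, had 74.6 and 73.9 TPM in EpiLC, against 0.432 and 0.363 in ESC, 1.54 and 1.18 in PGCLC_d3, and 8.2 and 7.42 in PGCLC_d3ag3. Pou3f1, the POU factor OCT6, had 210.4 and 218 TPM in EpiLC, against 1.08 and 1.06 in ESC, 26.9 and 26.7 in PGCLC_d3, and 4.22 and 4.88 in PGCLC_d3ag3. Sall2, a zinc finger factor of the spalt family, had 72.6 and 72.2 TPM in EpiLC, against 0 and 0.097 in ESC, 7.17 and 6.55 in PGCLC_d3, and 1.7 and 2.24 in PGCLC_d3ag3. Outside EpiLC the order differed, since Otx2 was next highest in PGCLC_d3ag3 and the other two in PGCLC_d3. Otx2 differed by 1.90 ± 0.13 (SE, log2) in PGCLC_d3ag3 minus PGCLC_d3 (limma, n = 2 libraries each). Pou3f1 differed by 3.75 ± 0.10 (SE, log2) in PGCLC_d3 minus ESC (limma, n = 2 libraries each). Both differences are given without a p-value, since the rule also used the values of these states.

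Sox4, Tead2, Grhl2, Igfbp2, Cldn6, Myc and Lef1 were also EpiLC-high. The 4 EpiLC-low members of this list were Etv4, Etv5, Cdh2 and Nkx1-2. Etv4 and Etv5 are ETS factors and targets of FGF and ERK signalling. Etv4 had 3.25 and 3.16 TPM in EpiLC, against 78.9 and 69.5 in ESC, 128 and 122 in PGCLC_d3, and 26.6 and 30.3 in PGCLC_d3ag3. Cdh2, N-cadherin, had 0.933 and 0.84 TPM in EpiLC, against 3.87 and 4.26 in ESC, 12.2 and 13.7 in PGCLC_d3, and 9.5 and 7.76 in PGCLC_d3ag3. The EpiLC values of both genes lay below all others, with PGCLC_d3 the highest group. Zic2, Zic5 and Foxd3 were lower in EpiLC than in ESC and near 0 in both PGCLC groups. Zic2 differed by -0.92 ± 0.12 (SE, log2) in EpiLC minus ESC (limma, n = 2 libraries each, adjusted p = 6.7e-05).

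Among 15 tested core and general pluripotency genes, 8 were EpiLC-high and 2 EpiLC-low, and the median difference was 1.04. Lin28a, an RNA-binding protein that blocks let-7 processing, had 538 and 547 TPM in EpiLC, against 111 and 99.1 in ESC, 175 and 157 in PGCLC_d3, and 199.99 and 229 in PGCLC_d3ag3. Utf1, a chromatin factor of pluripotent cells, had 1865 and 1813 TPM in EpiLC, against 899 and 834 in ESC, 1432 and 1504 in PGCLC_d3, and 1430.2 and 1489.9 in PGCLC_d3ag3. Dppa4, Zfp281, Lin28b, Sall1, Epcam and L1td1 rose as well. The Utf1 values lay close above those of both PGCLC groups, whereas the nearest Lin28a values, those of PGCLC_d3ag3, were well below EpiLC.

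The 2 low members of that list were Sox2 and Sall4. Sox2, the SOXB1 partner of OCT4, had 26.5 and 21.2 TPM in EpiLC, against 211 and 223 in ESC, 217 and 227 in PGCLC_d3, and 195 and 182 in PGCLC_d3ag3. The 3 other states lay close together, all above EpiLC. Pou5f1, which encodes OCT4, had 289.8 and 265 TPM in EpiLC, against 517 and 516 in ESC, 181 and 191 in PGCLC_d3, and 127 and 133 in PGCLC_d3ag3. It was between ESC and the PGCLC groups in EpiLC and so was not EpiLC-specific. Pou5f1 differed by -0.90 ± 0.06 (SE, log2) in EpiLC minus ESC (limma, n = 2 libraries each, adjusted p = 5.5e-07). Tdgf1, the NODAL co-receptor, had 653 and 601 TPM in EpiLC, against 737 and 765 in ESC, 33.7 and 37.9 in PGCLC_d3, and 14.7 and 14.3 in PGCLC_d3ag3. It was 0.26 below ESC on the log2 scale, with the PGCLC groups far lower than both.

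None of 17 tested naive pluripotency genes was EpiLC-high, and 7 were EpiLC-low, with a median difference of -2.01. Besides Nanog, Prdm14, Dppa3 and Gbx2 these were Esrrb, Nr5a2 and Klf5. Esrrb, an orphan nuclear receptor, had 0.968 and 0.527 TPM in EpiLC, against 111 and 125 in ESC, 20.5 and 20.1 in PGCLC_d3, and 13.6 and 14.7 in PGCLC_d3ag3. Klf4, Tbx3, Zfp42 and Tfcp2l1 were lower in EpiLC than in ESC but not EpiLC-specific. Zfp42, also known as REX1, had 84.4 and 74 TPM in EpiLC, against 614 and 583 in ESC, 3.67 and 4.48 in PGCLC_d3, and 9.42 and 7.74 in PGCLC_d3ag3. EpiLC stood between ESC and the PGCLC groups for it.

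Of 15 tested genes of early germ cell specification none was EpiLC-high and 8 were EpiLC-low, with a median difference of -3.31. Nanog, Prdm14, Ifitm3, Dppa3 and Sox2 are among them, and the others were Alpl, Tfap2c and Kit. Tfap2c, an AP-2 factor needed for germ cell fate, had 8.22 and 8.71 TPM in EpiLC, against 34.8 and 37.2 in ESC, 487 and 498 in PGCLC_d3, and 307 and 294 in PGCLC_d3ag3. Kit, the receptor of SCF, had 12.8 and 15 TPM in EpiLC, against 43.8 and 56.6 in ESC, 398 and 399 in PGCLC_d3, and 267 and 286 in PGCLC_d3ag3. ESC had the next lowest values of both genes and PGCLC_d3 the highest. Prdm1, a repressor that directs germ cell fate together with Prdm14 and Tfap2c, had 0.142 and 0.266 TPM in EpiLC, against 0.033 and 0.073 in ESC, 67.6 and 65.4 in PGCLC_d3, and 22.2 and 23.4 in PGCLC_d3ag3, so EpiLC and ESC were both near 0 and the gene was not specific.

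**Figure D2:**
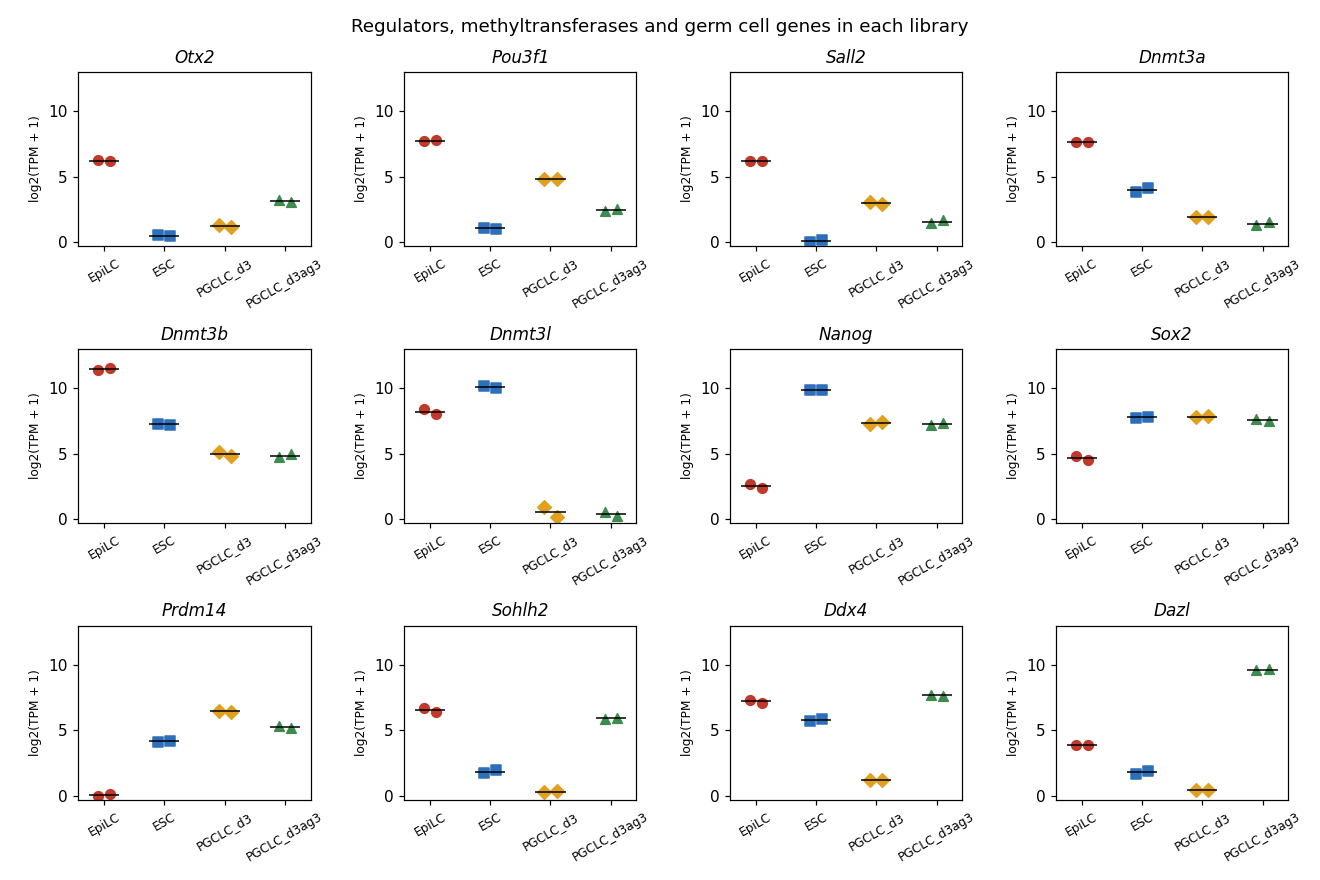
Levels in log2(TPM + 1) of 12 genes, with 1 panel per gene, 1 point per library and a line at each group mean; EpiLC stands leftmost in every panel. The EpiLC points are above all others for Otx2, Pou3f1, Sall2, Dnmt3a, Dnmt3b and Sohlh2, below all others for Nanog, Sox2 and Prdm14, and between groups for Dnmt3l, Ddx4 and Dazl.

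In DNA methylation, 4 of 15 tested genes were EpiLC-high and 1, Mbd1, was EpiLC-low. Dnmt3a, the second de novo methyltransferase, had 196 and 205 TPM in EpiLC, against 13.4 and 16.3 in ESC, 2.72 and 2.7 in PGCLC_d3, and 1.43 and 1.88 in PGCLC_d3ag3. Dnmt3l, a cofactor without catalytic activity, had 331 and 255 TPM in EpiLC, against 1121 and 1039 in ESC, 0.856 and 0.123 in PGCLC_d3, and 0.455 and 0.178 in PGCLC_d3ag3. Both methyltransferase genes were highest in EpiLC, whereas Dnmt3l was highest in ESC and near 0 in the PGCLC groups. Dnmt3l differed by -1.89 ± 0.21 (SE, log2) in EpiLC minus ESC (limma, n = 2 libraries each, adjusted p = 2.9e-05). Dnmt1, the maintenance enzyme, had 148 and 142 TPM in EpiLC, against 109 and 123 in ESC, 43.1 and 44.5 in PGCLC_d3, and 30 and 37.1 in PGCLC_d3ag3. Mat2a, which makes the methyl donor, was the fourth high gene.

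Of 10 tested demethylation genes, Tdg and Tet1 were EpiLC-high and Tet2, Gadd45g and Smug1 EpiLC-low. Tet2, a 5-methylcytosine dioxygenase, had 0.753 and 0.974 TPM in EpiLC, against 69.4 and 78.8 in ESC, 10.3 and 11 in PGCLC_d3, and 9.06 and 10.2 in PGCLC_d3ag3. Its paralog Tet1 had 37.1 and 41.3 TPM in EpiLC, against 25.8 and 29.8 in ESC, 16.7 and 17.9 in PGCLC_d3, and 17.3 and 18 in PGCLC_d3ag3. The 2 paralogs thus lay at opposite ends, with EpiLC below all other libraries for Tet2 and above them for Tet1. Smug1, a uracil glycosylase, had 15.2 and 15.2 TPM in EpiLC, against 24.5 and 24 in ESC, 19.7 and 19.2 in PGCLC_d3, and 17.5 and 17.8 in PGCLC_d3ag3, and under quantile normalization its EpiLC minus PGCLC_d3 difference changed sign.

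Germ cell genes of the gonadal stage gave 4 EpiLC-high and 1 EpiLC-low gene of 32 tested, shares below or near those over all genes. The 4 were Sohlh2, Tex11, Tex15 and Nobox. Sohlh2, a bHLH factor of early oocytes and spermatogonia, had 104 and 85 TPM in EpiLC, against 2.35 and 2.85 in ESC, 0.233 and 0.269 in PGCLC_d3, and 57.4 and 60.8 in PGCLC_d3ag3. Tex11, a meiotic gene on the X chromosome in mice, had 7.06 and 7.33 TPM in EpiLC, against 2.03 and 2.27 in ESC, 0 and 0.054 in PGCLC_d3, and 3.63 and 3.9 in PGCLC_d3ag3. Both were near 0 in PGCLC_d3, low in ESC and next highest in PGCLC_d3ag3. Sohlh2 differed by 5.59 ± 0.13 (SE, log2) in PGCLC_d3ag3 minus PGCLC_d3 (limma, n = 2 libraries each), given without a p-value for the same reason as Otx2.

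By single comparisons, EpiLC was higher than PGCLC_d3 in 24 of the 32 genes and lower in 3, where 27.6% and 47.3% of all tested genes were. It was higher than ESC in 20 and lower in 5, where 35.4% and 31.8% of all tested genes were. It was higher than PGCLC_d3ag3 in 5 and lower in 24, where 36.7% and 41.0% of all tested genes were. Ddx4, the germ granule helicase VASA, had 162 and 134 TPM in EpiLC, against 51.7 and 57.6 in ESC, 1.3 and 1.27 in PGCLC_d3, and 204 and 201 in PGCLC_d3ag3. Dazl, an RNA-binding protein that licenses gametogenesis, had 13.6 and 13.6 TPM in EpiLC, against 2.21 and 2.75 in ESC, 0.39 and 0.347 in PGCLC_d3, and 763 and 806 in PGCLC_d3ag3. For Ddx4 the EpiLC and PGCLC_d3ag3 libraries were close but did not overlap, whereas Dazl in EpiLC was far below PGCLC_d3ag3. Ddx4 differed by -0.46 ± 0.10 (SE, log2) in EpiLC minus PGCLC_d3ag3 (limma, n = 2 libraries each, adjusted p = 0.00155). Dazl differed by 3.42 ± 0.10 (SE, log2) in EpiLC minus PGCLC_d3 (limma, n = 2 libraries each, adjusted p = 3.0e-09). Of 16 tested PRC1.6 subunits and other germline gene repressors, 4 were EpiLC-high, Cbx1, Ehmt1, Atf7ip and Tfdp1, and 2 were EpiLC-low, Wdr5 and Rnf2.

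Most calls on the signalling lists were EpiLC-low, although the BMP, NODAL and FGF shares lay near that over all genes. Of 15 tested BMP targets none was EpiLC-high and 3 were EpiLC-low, namely Id3, Msx1 and Msx2. EpiLC was higher than ESC in 5 of the 15 and lower in 3, where 35.4% and 31.8% of all tested genes were. Against PGCLC_d3 it was higher in 0 and lower in 15, where 27.6% and 47.3% of all tested genes were. Against PGCLC_d3ag3 it was higher in 2 and lower in 9, where 36.7% and 41.0% of all tested genes were. Of 17 tested WNT targets 7 were EpiLC-low and 2, Lgr5 and Lef1, were EpiLC-high, with a median difference of -1.24. Cdx2, a caudal homeobox gene, had 0.05 and 0.235 TPM in EpiLC, against 116 and 135 in ESC, 28.1 and 18.6 in PGCLC_d3, and 1.48 and 1.21 in PGCLC_d3ag3. Tbxt, the mesoderm factor brachyury, had 0.047 and 0.164 TPM in EpiLC, against 3.09 and 3.6 in ESC, 64 and 52 in PGCLC_d3, and 2.94 and 5.21 in PGCLC_d3ag3. Sp5, Sp8, Cdx1, Nkd1 and Axin2 were the other low WNT targets.

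Of 17 tested LIF and STAT3 targets 7 were EpiLC-low and 1, Myc, was EpiLC-high, with a median difference of -1.50. Socs3, the feedback inhibitor of this pathway, had 3 and 3.73 TPM in EpiLC, against 180.3 and 192 in ESC, 80.9 and 88.8 in PGCLC_d3, and 30 and 33.3 in PGCLC_d3ag3. Il6st, the signalling receptor gp130, had 15.7 and 15.8 TPM in EpiLC, against 124 and 139 in ESC, 41.1 and 42.4 in PGCLC_d3, and 29.9 and 32.1 in PGCLC_d3ag3. Both were lowest in EpiLC and highest in ESC. Gbx2, Sgk1, Pim1, Ier3 and Bcl3 were the others.

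NODAL and activin genes gave 0 EpiLC-high and 3 EpiLC-low genes of 18 tested, Acvr1b, Foxh1 and Nodal. Nodal, the ligand of the epiblast, had 51.2 and 61.2 TPM in EpiLC, against 104 and 110.4 in ESC, 90 and 87.5 in PGCLC_d3, and 71.6 and 72.2 in PGCLC_d3ag3. Lefty1, its feedback inhibitor, had 158 and 198 TPM in EpiLC, against 700.4 and 816 in ESC, 257 and 295 in PGCLC_d3, and 21.6 and 19.9 in PGCLC_d3ag3. EpiLC were below both ESC and PGCLC_d3 for the 2 genes, but above PGCLC_d3ag3 for Lefty1. FGF and ERK genes gave 0 high and 2 low of 20, Etv4 and Etv5. Fgf4 had 85.4 and 70.7 TPM in EpiLC, against 138 and 148 in ESC, 0.119 and 0.241 in PGCLC_d3, and 0.867 and 0.132 in PGCLC_d3ag3. Its EpiLC values lay below those of ESC and far above those of the PGCLC groups.

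Of 23 tested glycolysis genes 6 were EpiLC-high and 2 EpiLC-low. EpiLC was higher than ESC in 7 of the 23 and lower in 11, where 35.4% and 31.8% of all tested genes were. Against PGCLC_d3 it was higher in 18 and lower in 3, where 27.6% and 47.3% of all tested genes were. Against PGCLC_d3ag3 it was higher in 16 and lower in 4, where 36.7% and 41.0% of all tested genes were. Pfkm, the muscle isoform of phosphofructokinase, had 227 and 180.0 TPM in EpiLC, against 18.4 and 18.1 in ESC, 21.2 and 21.6 in PGCLC_d3, and 34.3 and 34.2 in PGCLC_d3ag3. Slc2a1, the glucose transporter GLUT1, had 810.2 and 908 TPM in EpiLC, against 247 and 238 in ESC, 234 and 195 in PGCLC_d3, and 119 and 143 in PGCLC_d3ag3. Ldhb, which favours lactate oxidation, had 274 and 282 TPM in EpiLC, against 1243 and 1247 in ESC, 1213 and 1218 in PGCLC_d3, and 919 and 967 in PGCLC_d3ag3. Pfkm and Slc2a1 were highest in EpiLC by a wide margin, and Ldhb was lowest there. Pfkp, Slc16a1, Slc16a3 and Gapdh were the other high genes and Aldoc the other low gene.

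Oxidative phosphorylation gave 1 EpiLC-high gene and 14 EpiLC-low genes of 33 tested, with a median difference of -0.31. With median-of-ratios rescaling 7 were EpiLC-low. Ndufb8, a complex I subunit, had 311 and 297 TPM in EpiLC, against 426 and 421 in ESC, 457 and 460.4 in PGCLC_d3, and 875 and 740.3 in PGCLC_d3ag3. Its EpiLC values were the lowest and those of PGCLC_d3ag3 the highest. Of 18 tested genes of serine, one-carbon and threonine metabolism, 8 were EpiLC-high and 1, Gcat, was EpiLC-low. Phgdh, the first enzyme of serine synthesis, had 533 and 549.7 TPM in EpiLC, against 61 and 61.5 in ESC, 347 and 375 in PGCLC_d3, and 154 and 168 in PGCLC_d3ag3. Mthfd1, Shmt2, Mthfd1l, Gldc, Psat1 and Slc7a11 were among the others that rose. Slc7a11 was low in every library, with 1.5 and 1.98 TPM in EpiLC, against 0.091 and 0.112 in ESC, 0.935 and 1.12 in PGCLC_d3, and 0 and 0.116 in PGCLC_d3ag3. The Slc7a11 call against PGCLC_d3 depended on EpiLC replicate 2, and no p-value is given, since the rule used these values.

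Epithelial polarity and brush border genes had 14 EpiLC-high and 2 EpiLC-low members of 28 tested, with a median difference of 1.34. Podxl, an apical sialomucin, had 128 and 150.2 TPM in EpiLC, against 30.9 and 35.6 in ESC, 6.09 and 5.25 in PGCLC_d3, and 0.993 and 1.36 in PGCLC_d3ag3. Cldn6, a tight junction claudin of pluripotent cells, had 388 and 431 TPM in EpiLC, against 33.8 and 37.3 in ESC, 127 and 97 in PGCLC_d3, and 23.2 and 27.2 in PGCLC_d3ag3. Ezr, which links the apical membrane to actin, had 459 and 495 TPM in EpiLC, against 178 and 191 in ESC, 302 and 272 in PGCLC_d3, and 98.7 and 99.2 in PGCLC_d3ag3. Podxl was next highest in ESC, Cldn6 and Ezr in PGCLC_d3. Vil1, Grhl2, Cldn4, Cldn7, Itga6, F11r, Pard6b, Cgn, Crb3, Epcam and Cdh1 were the other high genes. Krt19, a keratin of simple epithelia and trophoblast, was EpiLC-low with 1.34 and 0.753 TPM in EpiLC, against 332 and 299 in ESC, 25.1 and 21.1 in PGCLC_d3, and 8.24 and 9.16 in PGCLC_d3ag3.

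Of 18 tested collagen, laminin and basement membrane genes, 5 were EpiLC-high, namely Itga6, Sparc, Lama5, Lamc1 and Dag1, and none was EpiLC-low. Markers of fibroblasts moved with EpiLC. Of 11 tested markers 7 were EpiLC-high, Dcn, Col1a2, Lum, Vim, Fbn1, Col3a1 and Mmp2, and 5 of 11 without EpiLC replicate 2, where Col3a1 and Mmp2 did not pass the test. The summed level of 16 fibroblast markers was 79.7 and 135 TPM in EpiLC, against 44.3 to 45.2 TPM in ESC, 38.2 to 42.9 TPM in PGCLC_d3 and 21.1 to 23.2 TPM in PGCLC_d3ag3. None of the 16 was at 0 in EpiLC. Col1a1, a defining marker, had 6.43 and 14.5 TPM in EpiLC, against 12.2 and 8.85 in ESC, 0.483 and 1.8 in PGCLC_d3, and 0.312 and 0.631 in PGCLC_d3ag3, so EpiLC and ESC overlapped. Thy1, another, was at 0.139 and 0.108 TPM in EpiLC. The part of these cells in the matrix gene values was not tested.

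Of 13 tested gonadal somatic markers 3 were EpiLC-high, Nr5a1, Amhr2 and Bmp2, and 1, Kitlg, was EpiLC-low. The summed level of 19 gonadal somatic markers was 43.1 and 43.7 TPM in EpiLC, against 41.2 to 78.9 TPM in the 6 others. Nr5a1, a nuclear receptor of steroidogenic cells, had 8.13 and 8.23 TPM in EpiLC, against 0.106 and 0.13 in ESC, 0.054 and 0.094 in PGCLC_d3, and 0.867 and 0.747 in PGCLC_d3ag3. Amhr2, a receptor of anti-Müllerian hormone, had 8.96 and 7.84 TPM in EpiLC, against 3.55 and 4.42 in ESC, 0.43 and 0.398 in PGCLC_d3, and 3.74 and 4.26 in PGCLC_d3ag3. Both were highest in EpiLC, while Wt1, Gata4 and Foxl2, defining markers of the list, were under 1 TPM in EpiLC. Of 8 tested endothelial and blood markers none was called, and the sum over 15 such markers was 60.7 to 66.9 TPM in EpiLC, against 27.3 to 189.4 TPM in the 6 others. Most of the EpiLC sum was Pecam1, at 50.8 and 47.7 TPM, which was higher in ESC and PGCLC_d3ag3. Cd68, 1 of the 8 (12.5%), was EpiLC-specific high, where 17.0% of all tested genes were. It had 10.5 and 8.86 TPM in EpiLC, against 7.68 and 6.71 in ESC, 2.27 and 1.31 in PGCLC_d3, and 0.276 and 0.294 in PGCLC_d3ag3. Of 13 tested trophoblast and amnion markers, Eomes was EpiLC-high and Krt19, Cdx2 and Plac8 were EpiLC-low.

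Among 25 tested imprinted genes 9 were EpiLC-high and 1, Slc38a4, was EpiLC-low. Mest, a paternally expressed gene in mice, had 2066 and 2015 TPM in EpiLC, against 172 and 193 in ESC, 273 and 269.6 in PGCLC_d3, and 38.9 and 37.9 in PGCLC_d3ag3. Gnas, the stimulatory G protein subunit with a complex imprinted locus, had 249.9 and 261 TPM in EpiLC, against 34.1 and 34.6 in ESC, 32.9 and 32.1 in PGCLC_d3, and 18.2 and 19.6 in PGCLC_d3ag3. Magel2, an imprinted ubiquitin ligase regulator, had 3.33 and 3.73 TPM in EpiLC, against 0.027 and 0.02 in ESC, 0.42 and 0.625 in PGCLC_d3, and 0.012 and 0 in PGCLC_d3ag3. The next highest group was PGCLC_d3 for Mest and Magel2 and ESC for Gnas. Nap1l5, Snrpn, Sgce, Impact, Igf2 and Dcn completed the 9, and Dcn is also a fibroblast marker. Peg3 went another way, with 12 and 13.2 TPM in EpiLC, against 8.55 and 10.9 in ESC, 412 and 443 in PGCLC_d3, and 64.8 and 59.5 in PGCLC_d3ag3, highest in PGCLC_d3.

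Of 30 tested DNA replication genes 7 were EpiLC-high and 1, Gins4, was EpiLC-low, and with median-of-ratios rescaling 11 were EpiLC-high. Ccne1, cyclin E1, had 279 and 256 TPM in EpiLC, against 121 and 112 in ESC, 33.7 and 35.2 in PGCLC_d3, and 31.4 and 35.2 in PGCLC_d3ag3. Pclaf, a PCNA-associated factor, had 279 and 279.5 TPM in EpiLC, against 0.72 and 1.05 in ESC, 139 and 147 in PGCLC_d3, and 44.4 and 35.4 in PGCLC_d3ag3, with ESC near 1 TPM. Of 19 tested p53 targets 6 were EpiLC-high and none was EpiLC-low. Cdkn1a, the inhibitor p21, had 27.8 and 24.2 TPM in EpiLC, against 12.4 and 18.4 in ESC, 6.17 and 6.53 in PGCLC_d3, and 2.47 and 2.25 in PGCLC_d3ag3. Mdm2, which degrades p53, had 158 and 146 TPM in EpiLC, against 87.5 and 112 in ESC, 119 and 117 in PGCLC_d3, and 100.1 and 105 in PGCLC_d3ag3. In histone methylation Kdm4c, a H3K9 demethylase, was EpiLC-high with 26.5 and 26 TPM in EpiLC, against 3.89 and 4.2 in ESC, 4.76 and 5.13 in PGCLC_d3, and 4.79 and 5.12 in PGCLC_d3ag3, and its 6 other values lay between 3.89 and 5.13 TPM. Of 25 tested genes on that list 5 were EpiLC-high and 3 EpiLC-low, Kdm3a, Kdm3b and Kdm4b.

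Interferon and antigen presentation genes gave 0 EpiLC-high and 9 EpiLC-low members of 18 tested, with a median difference of -2.22. Irf1, an interferon response factor, had 7.81 and 6.71 TPM in EpiLC, against 42.7 and 40.9 in ESC, 371 and 368 in PGCLC_d3, and 122 and 132 in PGCLC_d3ag3. Tapbp, the peptide loading factor tapasin, had 7.01 and 7.21 TPM in EpiLC, against 34.4 and 43.3 in ESC, 526 and 522 in PGCLC_d3, and 118 and 106 in PGCLC_d3ag3. Psmb9, an immunoproteasome subunit, had 1.4 and 1.83 TPM in EpiLC, against 2.87 and 3.28 in ESC, 197 and 209 in PGCLC_d3, and 102 and 95.9 in PGCLC_d3ag3. All 3 were lowest in EpiLC, next lowest in ESC and highest in PGCLC_d3. Ifitm3, Isg15, Bst2, Stat2 and Irf9 were among the other low genes. Of 11 tested HOX and CDX genes 4 were EpiLC-low, Cdx1, Cdx2 and Hoxb1 among them, and none was EpiLC-high.

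The remaining lists are given as counts of EpiLC-high and EpiLC-low genes, where 12.8% and 14.1% of all tested genes were called. There were 3 and 4 of 24 for cholesterol synthesis and 1 and 2 of 23 for the piRNA pathway. Meiosis had 2 and 1 of 27, and oocyte genes 1 and 2 of 7 (14.3% and 28.6%). Among the oocyte genes Ooep, of the subcortical maternal complex, had 1.96 and 0.819 TPM in EpiLC, against 970.5 and 948 in ESC, 6.38 and 6.14 in PGCLC_d3, and 8.31 and 12.2 in PGCLC_d3ag3. There were 5 and 2 of 13 for heat shock (38.5% and 15.4%) and 4 and 0 of 19 for ATF4 targets (21.1% and 0%). Mitosis had 2 and 3 of 21, ribosomal proteins 0 and 3 of 26, and immediate early genes 1 and 2 of 18. Counts were 1 and 1 for streak and mesoderm (15 tested), neural (8) and endoderm (13) genes. Tubulins had 2 and 1 of 17, and retinoic acid genes 3 and 1 of 13 (23.1% and 7.69%).

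**Figure D3:**
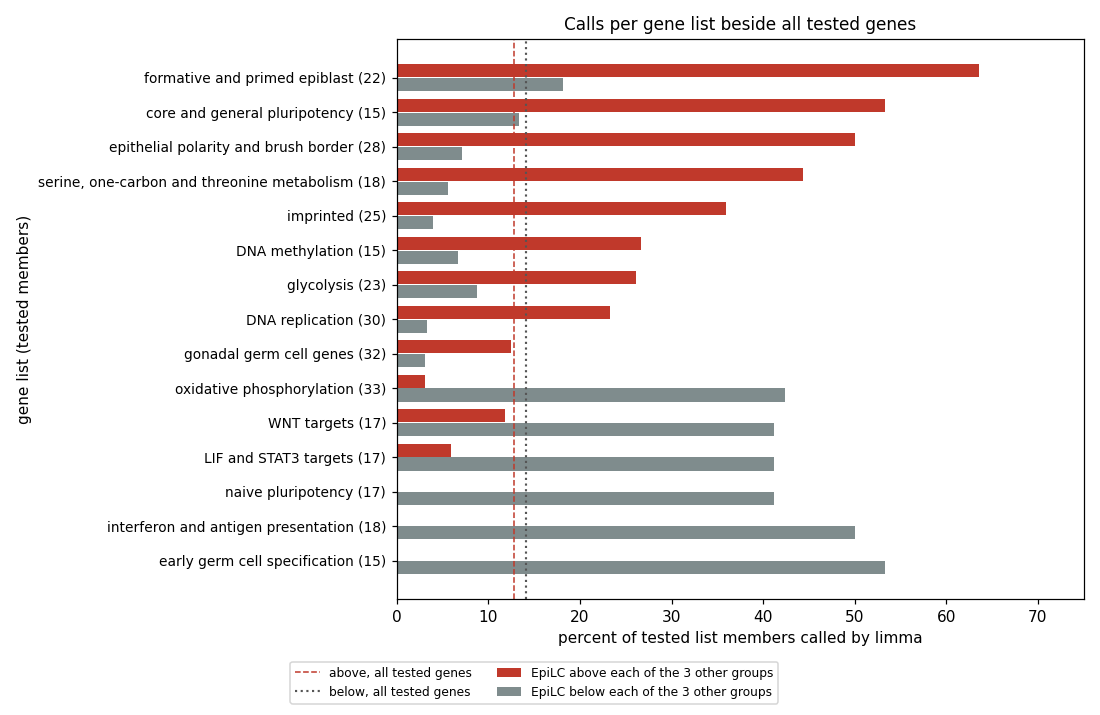
Percent of tested members of 15 gene lists called EpiLC-high (red) or EpiLC-low (grey), with the number of tested members in brackets and dashed and dotted lines at 12.8% and 14.1%, the shares over all tested genes. The formative epiblast list has 63.6% EpiLC-high members, and the early germ cell list has 53.3% EpiLC-low members and none high. The fibroblast marker list, which is not drawn, also has 63.6% EpiLC-high members, 7 of 11. Heat shock (38.5% EpiLC-high) and p53 targets (31.6%) are not drawn either.

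The rule also used the values of the 3 other states, so calls among those states are given here over all tested genes. Counts over the members appear only among the checks of the processing, with no reading drawn. Of all tested genes 49.6% were higher and 27.4% lower in PGCLC_d3 minus ESC, 25.7% higher and 44.8% lower in PGCLC_d3ag3 minus PGCLC_d3, and 42.5% higher and 34.8% lower in PGCLC_d3ag3 minus ESC. The library nearest to EpiLC belonged to ESC for 947 (41.1%) of the tested high genes, to PGCLC_d3 for 993 (43.1%) and to PGCLC_d3ag3 for 363 (15.8%). For the tested low genes it belonged to ESC for 1432 (54.3%), to PGCLC_d3 for 537 (20.4%) and to PGCLC_d3ag3 for 669 (25.4%). The same shares over all tested genes were not taken, so no group is read as closer to EpiLC. The median of PGCLC_d3 minus ESC over all tested genes was 0.25, and -0.003 with median-of-ratios rescaling. Whether the nearest group depends on the scaling was not tested.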

How the data were processed

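Total RNA was amplified with a SMART-Seq kit and sequenced, per the labels' protocols. The deposited values are log2(TPM + 1) per gene and library, made by the authors. Per the submitters' processing notes, bcl2fastq 2.20, cutadapt 1.1.6, HISAT2 2.1.0, build rn7 and featureCounts of Subread 1.6.5 were used. A total of 11066 rows without a gene name were left out. TPM keep no read totals, so depth is relative and no counting intervals are given.

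Groups came from sample titles. Genes with at least 1 TPM in 2 libraries were fitted with limma 3.58.1 in R 4.3.3 (lmFit, eBayes with trend, 2-sided, all 4 groups, 4 residual degrees of freedom, median residual SD 0.104), tested on simulated data, with Benjamini-Hochberg adjustment over 13571 genes. Fold changes on this scale understate those of low genes. Figures were drawn with matplotlib.

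The text names genes among the 20 widest gaps per direction without clone-style symbols, fixed regulators, and members of some lists. Named list members are not always those with the widest gap, and further genes were chosen after their values were seen. The p53 targets Zmat3 and Eda2r, with gaps of 0.844 and 0.746, are given no values, for example. A few genes counted in the lists are not reported here by name. Members and the 42 lists were chosen with earlier results of these data known. Deviations of replicate 1 from the group mean showed no shared effect of the replicate number (correlations -0.037 to 0.066 over 6 pairs of groups). These correlations do not settle whether libraries with the same number were paired, and the labels do not say.

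Promoter windows were matched by symbol or synonym for 77.5% of tested genes, 78.5% of tested EpiLC-specific high genes and 81.3% of tested EpiLC-specific low genes. Motifs were not compared between members and other genes. The alternatives were median-of-ratios and quantile scaling, a pseudocount of 0.1 in place of 1, no filter, a filter at 5 TPM, leaving out each library, a replicate block, and fits of 2 groups alone.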

Additional observations from a re-analysis of the deposited data

How the results depend on the processing

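EpiLC-high and EpiLC-low calls numbered 1733 and 1920, and 2018 and 1702 with median-of-ratios rescaling, 2084 and 1786 with quantile normalization, 1590 and 1952 with a pseudocount of 0.1, 2102 and 1822 without a filter, 1381 and 1783 with at least 5 TPM, and 1771 and 1824 when each comparison was fitted alone. Leaving out 1 library gave 1452 to 1809 and 1599 to 1983, and each list count tracked stayed within 1.5 times. With a replicate block the counts were 1749 and 1931, including 1716 of 1733 and 1896 of 1920 calls; no count tracked moved by over 1.5 times.

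Median-of-ratios rescaling moved 3 counts. EpiLC-specific high genes higher in PGCLC_d3ag3 minus PGCLC_d3 numbered 548 (555 with quantile normalization), against 343 of 2303 (14.9%). Those lower numbered 1191 (1158 with quantile normalization), against 1211 (52.6%). Without rescaling, 25.7% of all tested genes were higher and 44.8% lower. No reading is drawn from these member counts, since the rule bounded the values of both groups. DNA replication had 11 EpiLC-high genes, against 7, and oxidative phosphorylation 7 EpiLC-low genes, against 14. The cause was not tested. Medians over all tested genes shifted from 0.25 in PGCLC_d3 minus ESC to -0.003 and 0.03, and from -0.18 in PGCLC_d3ag3 minus PGCLC_d3 to -0.004 and -0.002. Smug1 EpiLC minus PGCLC_d3 turned to 0.021 on the log2 scale under quantile normalization, given without a p-value since Smug1 is EpiLC-specific. Among the genes named above, 1 or more calls of Cbx1, Col3a1, Lama5, Mmp2, Slc7a11, Smug1 and Tdgf1 did not pass the test when 1 library was left out, and a call of Fgf4 did not with a pseudocount of 0.1. The number of libraries limits precision.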

Other observations

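Some genes outside the lists were chosen after their values were seen and are given without a test. Among them are genes known as targets of NRF2, the transcription factor of the oxidative stress response. Gstp1, a glutathione S-transferase, had 4132 and 4036 TPM in EpiLC, against 79.9 and 91.3 in ESC, 360.0 and 338 in PGCLC_d3, and 171 and 141 in PGCLC_d3ag3. Nqo1, a quinone reductase, had 336 and 317 TPM in EpiLC, against 56.9 and 84.9 in ESC, 78.2 and 77.4 in PGCLC_d3, and 17.9 and 17.5 in PGCLC_d3ag3. Hmox1, heme oxygenase, had 1693 and 1424 TPM in EpiLC, against 641 and 647 in ESC, 189 and 205 in PGCLC_d3, and 67.6 and 68.6 in PGCLC_d3ag3. All 3 were far higher in EpiLC than in any other library, with PGCLC_d3 or ESC next. Gclm and Gclc, the subunits of the enzyme that starts glutathione synthesis, Txnrd1, Srxn1, Me1, Slc7a11 and Osgin1 were other such targets picked for their high values. The margin was small for Me1 and Slc7a11, with gaps of 0.167 and 0.238, below the median gap of 0.364 of high genes. Over all tested genes 17.0% were EpiLC-specific high and 19.4% EpiLC-specific low, so single genes of either kind are common. Gsta4, another glutathione S-transferase, was EpiLC-specific low, with 11.7 and 14.5 TPM in EpiLC, against 108 and 119 in ESC, 108 and 102 in PGCLC_d3, and 114 and 125 in PGCLC_d3ag3. The gene of NRF2 itself, Nfe2l2, had 60.9 and 63.1 TPM in EpiLC, against 34.1 and 38.5 in ESC, 33.5 and 33.5 in PGCLC_d3, and 34.7 and 34.9 in PGCLC_d3ag3. Its inhibitor Keap1 had 24 and 22.5 TPM in EpiLC, against 29.4 and 30.4 in ESC, 25 and 23.6 in PGCLC_d3, and 23.1 and 22.5 in PGCLC_d3ag3, and was not specific.

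A few single genes best known from lymphocytes were picked as well. Cd8a, a T cell co-receptor chain, had 27 and 30.1 TPM in EpiLC, against 0.172 and 0.315 in ESC, 0.065 and 0.075 in PGCLC_d3, and 0 and 0.109 in PGCLC_d3ag3. Lat, an adaptor of the T cell receptor, had 53.6 and 40 TPM in EpiLC, against 2.12 and 2.73 in ESC, 0.919 and 0.972 in PGCLC_d3, and 0.186 and 0.593 in PGCLC_d3ag3. Coro1a, an actin regulator of blood cells, had 51.3 and 53.3 TPM in EpiLC, against 0.139 and 0.459 in ESC, 4.34 and 3.06 in PGCLC_d3, and 0.418 and 0.704 in PGCLC_d3ag3. In all 3 the EpiLC values stood far above the others. Cd3g, a chain of the T cell receptor complex, was instead highest in PGCLC_d3ag3, with 0.473 and 1.38 TPM in EpiLC, against 0 and 0 in ESC, 0 and 0 in PGCLC_d3, and 2.66 and 2.43 in PGCLC_d3ag3. Ptprc, the pan-leukocyte marker CD45, was at 0.02 and 0 TPM in EpiLC, Cd4 at 0.032 and 0, Cd3e at 1.26 and 0.462, Cd8b at 0.409 and 0.127, and Cd2 was listed at 0 in both.

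Of the purine genes looked at after Pnp and Prps2, most were not specific or only narrowly so. Prps1, the paralog of Prps2, was EpiLC-specific high with 166 and 176 TPM in EpiLC, against 128 and 121 in ESC, 25.6 and 26.2 in PGCLC_d3, and 44.9 and 54.1 in PGCLC_d3ag3. Ada, which acts beside Pnp in purine salvage, had 4.5 and 5.77 TPM in EpiLC, against 4.69 and 6.22 in ESC, 6.76 and 6.58 in PGCLC_d3, and 8.83 and 8 in PGCLC_d3ag3. Aprt, another purine salvage enzyme, had 209.7 and 192 TPM in EpiLC, against 418 and 411 in ESC, 130.2 and 121 in PGCLC_d3, and 80.3 and 88.1 in PGCLC_d3ag3. Adk, adenosine kinase, had 168 and 184 TPM in EpiLC, against 171 and 151 in ESC, 199 and 207 in PGCLC_d3, and 288 and 299 in PGCLC_d3ag3. In none of these 3 were the EpiLC values above or below all others. Hprt1 was EpiLC-specific high by a gap of only 0.012.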
